A study of Mus musculus with 10 samples.

Results

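The regions described here are stretches of chromatin that were called accessible in Myc-CaP cells treated with oxaliplatin, with or without interferon-γ (IFNγ), and in none of the untreated, cisplatin-treated or IFNγ-treated cells. They were chosen from the deposited peak lists of an assay for transposase-accessible chromatin (ATAC-seq). The distinct intervals of the 5 lists were merged where they overlapped by 1 bp, and a merged region was a member when it held an interval of the Oxali and of the Oxali + IFNγ list and none of the other 3. This rule took 10170 of 211107 merged regions, which is 4.82%. Because the calls themselves chose the members, their presence with oxaliplatin and absence with cisplatin is a description and not a finding, and no test is attached to it.

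Myc-CaP is a prostate cancer line from FVB/NJ mice. Cells of all groups were sampled at 48 h: untreated (Ctrl), 2 µM oxaliplatin (Oxali), 2 µM cisplatin (Cispl), IFNγ alone (labelled 1000 pg, with no volume) or oxaliplatin and IFNγ at those amounts (Oxali + IFNγ). Each group had 2 libraries, 10 in all, which the authors pooled before calling, so that there are 5 lists with no replicates and no difference between treatments could be set against the spread between libraries. All cells belong to this single line, and start sites of Krt8, Foxa1 and Hoxb13, which mark luminal prostate epithelium, held an interval in every list. That of Krt18 held one in Ctrl and Oxali only, that of Epcam in IFNγ only, and that of Cdh1 in none. Markers of other cells were called too: 2 of 4 of fibroblasts (Pdgfra, Col1a1) and 1 of 3 of basal epithelium (Krt14) in every list, the leukocyte markers Csf1r in every list and Ptprc in the 3 lists with a platinum drug, and at most 1 of 3 of endothelium. Cd3e, Itgam, Cdh5, Tek, Krt5, Trp63, Pdgfrb and Dcn were called in none, and the part of other cells in the results was not tested.

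Oxaliplatin and cisplatin both form platinum adducts and crosslinks on DNA. Oxaliplatin keeps a diaminocyclohexane ligand on the platinum and loses oxalate, whereas cisplatin keeps ammine ligands and loses chloride. Chromatin away from start sites opens where transcription factors bind enhancers together with nucleosome remodelers and histone acetyltransferases. AP-1, a dimer of Jun and Fos family proteins, is a common factor at enhancers that open under stress, NF-κB acts in inflammatory and genotoxic signaling, RUNX and TEAD proteins often bind beside AP-1, and CTCF holds chromatin loops.

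The sequences below show the short motifs at the summits of members that are compared further on. Each runs from 50 bp before to 50 bp after the summit of the Oxali list, on the + strand of mm10 (GRCm38). The members are the strongest in which the motif lay within 20 bp of the summit, capitals mark the motif on either strand, and the pileup is the number of read ends, each extended to 150 bp by the authors, that cover the summit.
Nol4l, 13150 bp from its start site, chr2:153543071-153543171, AP-1: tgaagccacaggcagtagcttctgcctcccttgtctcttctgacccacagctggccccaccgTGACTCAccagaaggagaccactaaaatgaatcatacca
Tenm4 intron, chr7:96423002-96423102, AP-1: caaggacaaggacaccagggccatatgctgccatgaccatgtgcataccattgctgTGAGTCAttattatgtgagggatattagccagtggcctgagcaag
Tfcp2l1, 94826 bp from its start site, chr1:118722722-118722822, NF-κB: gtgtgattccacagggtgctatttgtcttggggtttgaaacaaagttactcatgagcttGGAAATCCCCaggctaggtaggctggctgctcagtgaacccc
Tnfsf4, 44217 bp from its start site, chr1:161351142-161351242, NF-κB: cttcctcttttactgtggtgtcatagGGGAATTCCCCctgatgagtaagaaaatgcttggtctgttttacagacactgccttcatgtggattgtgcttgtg
Eif1, 6140 bp from its start site, chr11:100326974-100327074, TEAD: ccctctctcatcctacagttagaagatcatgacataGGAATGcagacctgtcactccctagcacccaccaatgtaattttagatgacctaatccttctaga
Aff3 intron, chr1:38424574-38424674, RUNX: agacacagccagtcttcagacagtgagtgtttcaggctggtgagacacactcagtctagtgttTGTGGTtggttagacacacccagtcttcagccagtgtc
Atp1b4 intron, chrX:38329935-38330035, CTCF core: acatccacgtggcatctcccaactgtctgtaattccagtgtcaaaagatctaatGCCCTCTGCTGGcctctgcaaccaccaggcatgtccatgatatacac

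The Nol4l member, chr2:153542587-153543478, had a pileup of 96 with Oxali and 112 with Oxali + IFNγ. At Tenm4, a gene for a teneurin adhesion protein, the member chr7:96422910-96423187 had levels of 8.25 times the genome background with Oxali, a pileup of 93, and 7.83 times with the combination. Both stood over a background of 11.3 in the Oxali list, and pileups of at most 20 in Ctrl, 26 in Cispl and 17 in IFNγ could have gone without a call there. An interval of Cispl lay 492 bp from the Nol4l member and 33348 bp from the Tenm4 member. The NF-κB member near Tnfsf4, the gene for OX40 ligand, had 79 with Oxali and 139 with the combination, whose list was 114% as deep. The AP-1 sites shown are the letters TGACTCA on either strand, and the NF-κB match near Tnfsf4 was counted at 2 overlapping positions.

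Among the patterns of calls over the 5 lists, that of the members was the sixth most frequent. Regions called in every list numbered 85377 (40.4%), and those called with both platinum drugs and the combination but not in Ctrl or IFNγ numbered 23528 (11.1%). The latter, named platinum-shared below, are the closest comparison, since they differ from the members only by a call in the Cispl list. Regions called in the Cispl list alone numbered 19225. The Cispl list was 122% as deep as that of Oxali. Both drugs were given at the same dose for the same time, but the lists used here hold pooled libraries, and the difference between the drugs was not tested.

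**Figure D1:**
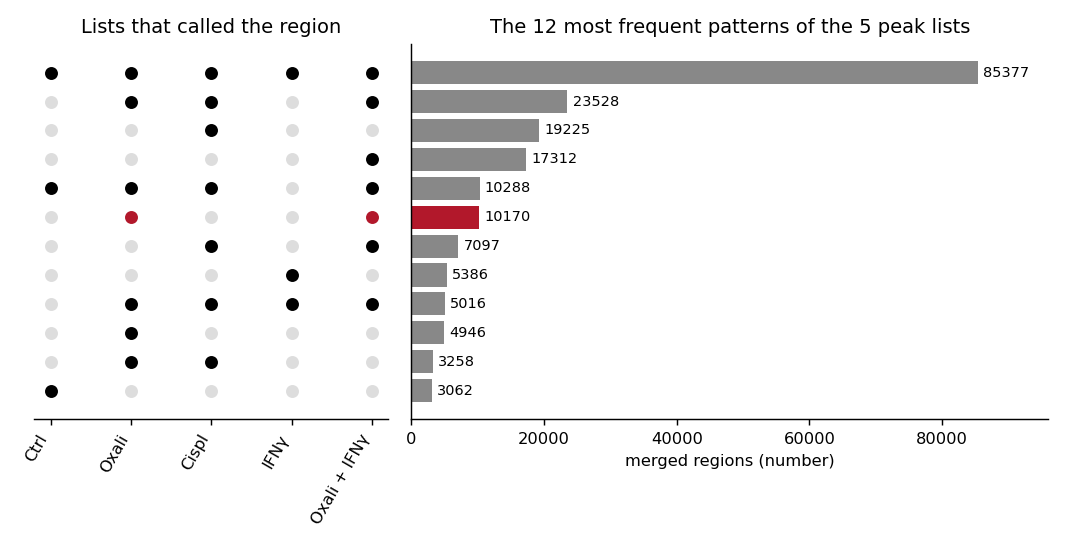
The 12 most frequent patterns of the 5 peak lists: filled dots mark the lists that called a region and bars give the number of merged regions. The members, in red, numbered 10170, against 23528 regions shared by both platinum drugs and the combination and 19225 of Cispl alone.

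Most members were weak to moderate peaks. The pileup in the Oxali list ran from 20 to 1229 with a median of 34, and in the Oxali + IFNγ list from 22 to 1353 with a median of 42. In fold over the local background, as deposited, the medians were 2.67 and 2.80. Both calls had a q-value of at most 0.01 in 8940 members (87.9%), of at most 1e-05 in 4926 (48.4%) and of at most 1e-10 in 1561 (15.3%). In 93.3% of members the summits of both lists lay within 100 bp of each other. The platinum-shared regions were taller, with a median pileup of 46 in the Oxali list and 53 in the Cispl list.

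A missing call limits a level only down to the calling threshold of a list, and the Cispl list was cut higher than the others. Its lowest −log10 p was 2.99, against 2.00 in the other 4, and its peak numbers end at 300000. At the genome background, a pileup of up to 20 in Ctrl, 26 in Cispl or 17 in IFNγ could thus have gone without a call. In Cispl, 26 is the pileup at its lowest −log10 p, at which some regions were called and others may have been cut. At the Oxali level, scaled to the depth of the Cispl list, 9991 members (98.2%) would have passed there by height. With counting error allowed for, the lower Poisson bound of that level exceeded the limit of the Cispl list in 5894 members (57.95%). The scaled level exceeded the highest uncalled pileup of the Cispl list by a median factor of 1.50 (quartiles 1.31 and 1.79), and by over 2 in 1528 members (15.02%). These values rest on the levels that chose the members and are a description.

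**Figure D2:**
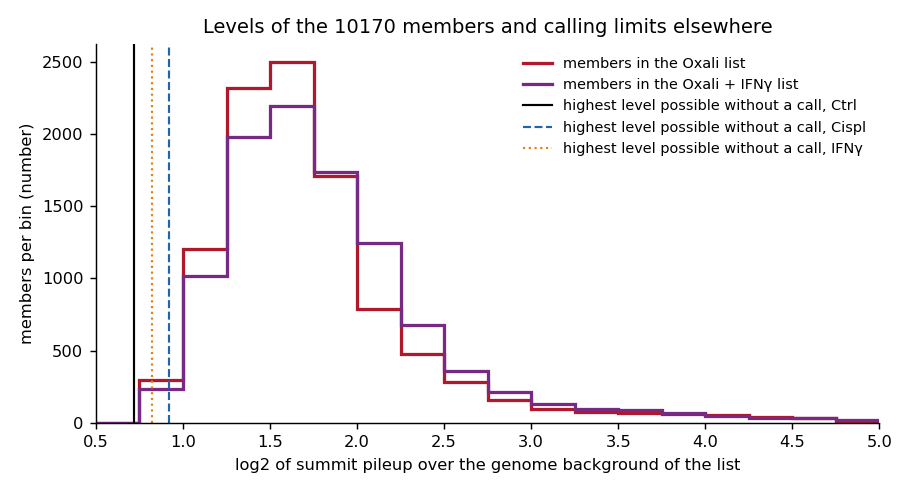
Levels of the members in both lists: log2 of summit pileup relative to the background of the genome, in bins of 0.25. Vertical lines mark the highest level that could go without a call in the 3 other lists at the background of the genome (20.8% of members stood over a higher one, with higher limits), and nearly all members lie to the right of the Cispl line in both lists.

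At the edge of the rule, values inside and outside lay close together. The weakest members were chr6:16551344-16551607, with pileups of 20 and 37, and chr13:55715550-55715789 near Txndc15, with 41 over a background of 28.3 in the Oxali list and 82 in the combination. Just outside were the platinum-shared regions with the weakest Cispl call. At chr1:59421263-59421776 near Fzd7, a Wnt receptor gene, pileups were 34 with Oxali, 46 with the combination and 26 with Cispl, at the lowest −log10 p of that list. The region chr1:86048742-86049417 had 34, 41 and 26 in the same order. Of the platinum-shared regions, 833 (3.54%) had a Cispl −log10 p under 4.

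The step of the rule that took the combination list can be given as counts. These come from the calls that chose the members, and the combination cells had received oxaliplatin and no cisplatin, so they describe the rule, and their direction follows from the design. Of 15116 regions called in Oxali and not in Ctrl, Cispl or IFNγ, 67.3% (95% Wilson interval, 66.5 to 68.0) were called with Oxali + IFNγ, and these are the members. Of 26322 regions called in Cispl and not in Ctrl, Oxali or IFNγ, 27.0% (26.4 to 27.5) were called with the combination. The intervals cover counting error of regions and not differences between libraries. By class of −log10 p, the shares were 66.7% and 24.9% between 6 and 8, and 90.8% and 37.0% at 12 or more. Calls of IFNγ alone were found again in 15.2%.

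**Figure D3:**
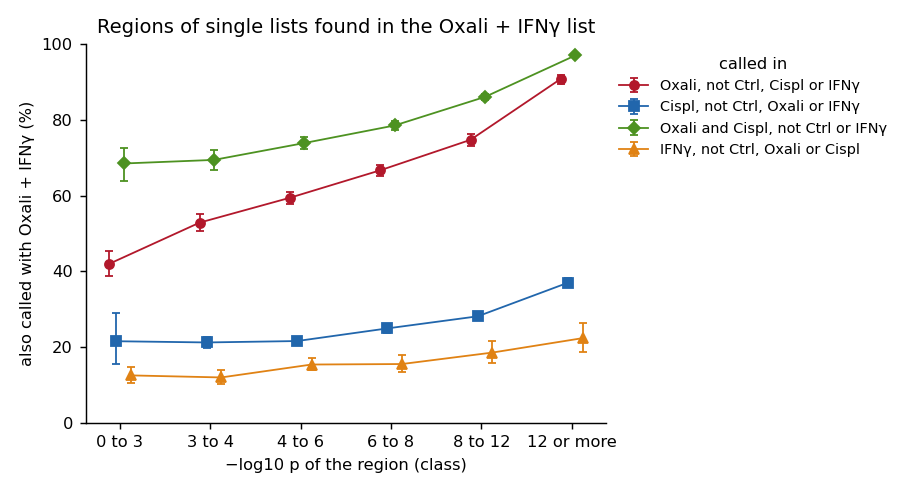
Share of regions also called in the Oxali + IFNγ list, by −log10 p class of the region, with 95% Wilson intervals. Regions of Oxali without Ctrl, Cispl or IFNγ rise from 42.0% to 90.8%, and those of Cispl without Ctrl, Oxali or IFNγ from 21.5% to 37.0%.

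Levels of the members with and without IFNγ lay close together. At matched depth the log2 ratio of Oxali + IFNγ over Oxali had a median of 0.09 and quartiles of −0.14 and 0.32. It was above 0 in 6144 members (60.4%), over 1.5-fold higher in 771 (7.58%) and over 1.5-fold lower in 222 (2.18%). Both values were bounded from below by the calls that chose the members. Members with an interferon-stimulated response element (ISRE, here a pair of GAAA separated by 2 bases), which interferon regulatory factors bind, were higher with the combination in 73.4% of 384, with a median log2 ratio of 0.25, against 59.9% and 0.08 in members without it. For NF-κB matches the shares were 65.5% and 60.1%, and for the STAT element TTCNNNGAA (GAS) 59.7% and 60.5%. Over the 14 motifs searched, the share of members with a match that were higher ran from 44.2% to 73.4%. These shares compare 2 pooled lists that also chose the members, so they are a description with no test.

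In genomic position, members were distal. Of 10170 members, 812 (7.98%, 7.47 to 8.53) lay within 1 kb of an annotated start site, 513 (5.04%) in exons, 4162 (40.9%) in introns and 4683 (46.0%) between genes. Over all merged regions the shares were 15.9%, 6.935%, 39.84% and 37.33% in the same order, so the intron share was near that of all regions. The start-site share of members was 2.24 points lower than in platinum-shared regions (Newcombe 95% interval, −2.88 to −1.57) and 3.03 points lower than in regions of Cispl alone (−3.71 to −2.33). The intergenic share was 4.70 points higher than in platinum-shared regions (3.55 to 5.86) and 14.9 points higher than in regions of Cispl alone (13.8 to 16.1). The median distance to the start site of a protein-coding gene was 29538 bp, against 21881 bp for platinum-shared regions and 14677 bp for Cispl alone, and 21.4% of members lay over 100 kb away. For all merged regions the median was 15288 bp, and 12.03% lay over 100 kb away. Position was not used by the rule, but regions are not replicates of a treatment, and these intervals compare lists.

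Base composition hardly separated the sets. Median GC content within 100 bp of the summit was 47.8% in members and 47.8% in platinum-shared regions, against 49.3% in all merged regions. The mean number of GG or CC steps, the preferred sites of platinum crosslinks, was 25.2 in members, 25.3 in platinum-shared regions and 25.5 in regions of Cispl alone. Sequence that was mostly repeat-masked was found at 14.3% of member summits and 15.7% of platinum-shared ones, a difference of −1.44 points (−2.25 to −0.605). The median width was 255 bp in members, 336 bp in platinum-shared regions and 182 bp in regions of Cispl alone.

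Members lay on every chromosome. The nearest other member was a median of 45.1 kb away, and 1978 (19.4%) had one within 10 kb. By chromosome, members made up from 3.73% of merged regions on chromosome 11 to 6.77% on chromosome 18. Many lay beside chromatin that was open in other lists too: 1900 members (18.7%) had an interval of Ctrl, Cispl or IFNγ within 500 bp. Of these, 44.7% stood over a raised local background in the Oxali list, against 15.3% of the other 8270, and 12.6% lay at start sites, against 6.92%.

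Members and platinum-shared regions were compared for sequence motifs, which the rule had not used. AP-1 sites (TGACTCA or TGAGTCA) lay within 100 bp of the summit in 27.9% of members (27.0 to 28.8), in 17.62% of platinum-shared regions and in 17.58% of all merged regions. TEAD sites (GGAATG), RUNX sites (TGTGGT) and NF-κB sites were also more frequent in members, whereas half-sites of the steroid nuclear receptors (AGAACA) and the CTCF core were less frequent. These 6 of 14 motifs searched differed, 4 of them higher and 2 lower.

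For each motif the platinum-shared regions were weighted to the GC content and the Oxali −log10 p of the members, both in 5 classes, which took their AP-1 share to 15.4%, and the 95% interval was widened for 14 motifs. The weighting did not fully match strength: the mean −log10 p was 9.12 in members and 10.9 in the weighted platinum-shared regions, against 17.9 before weighting. All shares of platinum-shared regions set beside a difference are weighted in this way. The AP-1 difference was 12.5 points (10.9 to 14.01) with this weighting. For TEAD, 18.2% of members against 14.6% gave a difference of 3.57 points (2.17 to 4.97), with 13.9% in all merged regions. For RUNX, 29.5% against 27.2% gave 2.31 points (0.623 to 4.00), with 23.3% in all merged regions. The RUNX difference was the least secure, since without weighting it was 1.21 points (−0.357 to 2.79).

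NF-κB sites were held by 6.33% of members and 4.27% of platinum-shared regions, a difference of 2.06 points (1.21 to 2.92), with 4.03% in all merged regions. The nuclear receptor half-site, which steroid receptors bind, was held by 22.1% of members and 25.9% of platinum-shared regions, a difference of −3.82 points (−5.41 to −2.23), with 20.8% in all merged regions. The CTCF core was rare in members: 45 of 10170 held it (0.442%, 0.331 to 0.592), against 1.57% of platinum-shared regions, a difference of −1.12 points (−1.46 to −0.784), and 3.52% of all merged regions.

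The other 8 motifs did not differ by this interval. The ISRE was held by 3.78% of members and 3.37% of platinum-shared regions (difference −0.309 to 1.12 points), and GAS by 6.25% and 6.87% (−1.55 to 0.316), with 2.58% and 6.05% in all merged regions. For the p53 half-site the shares were 7.57% and 7.35% (−0.781 to 1.22), with 6.77% in all merged regions. Forkhead sites (TATTTAC or TGTTTAC) were held by 8.01% and 7.52% (−0.522 to 1.51), with 7.24% in all merged regions. C/EBP sites (TTGCNNAA) were held by 7.55% and 8.28% (−1.74 to 0.290), with 7.76% in all merged regions. Cyclic AMP response elements (TGACGTCA) were held by 0.423% and 0.318% (−0.152 to 0.362), ETS sites (CCGGAA) by 2.28% and 2.12% (−0.404 to 0.719) and E-boxes (CACGTG) by 3.81% and 3.58% (−0.491 to 0.942), with 0.469%, 3.61% and 3.81% in all merged regions. All motifs were searched on both strands, some overlap in sequence, and a match is not evidence that the factor was bound.

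**Figure D4:**
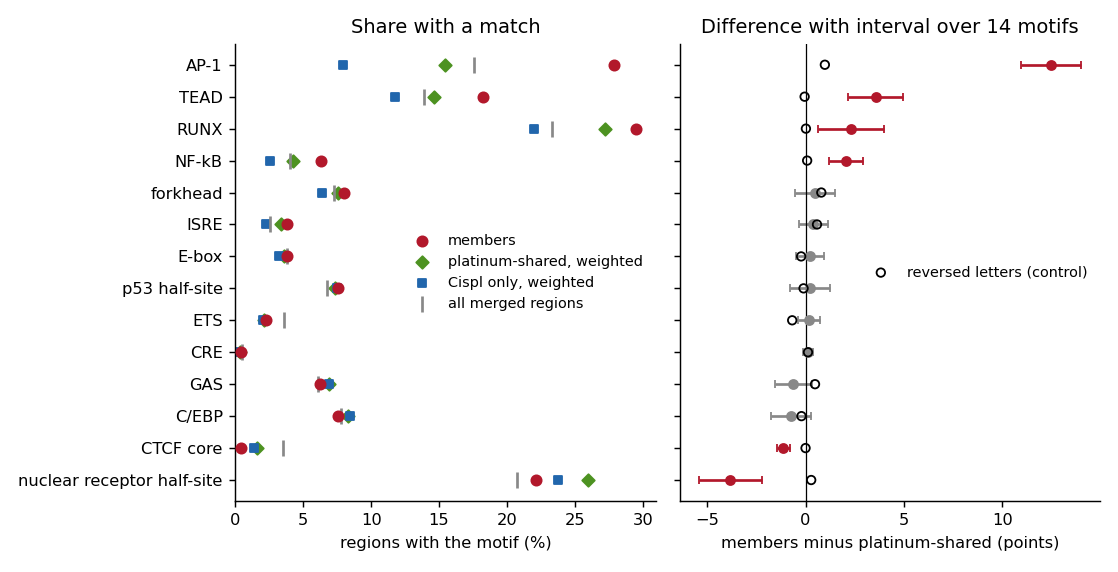
Left, share of regions with each motif within 100 bp of the summit in members, in platinum-shared and Cispl-only regions weighted to the members, and in all merged regions. Right, members minus platinum-shared regions with intervals widened for 14 motifs (red where the interval leaves out 0) and the same difference for the reversed letters (open circles). AP-1 stands at 12.5 points and its reversed letters at 0.981.

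As a control, each motif was also searched with its letters reversed and not complemented. Of the 14 reversed motifs, 1 differed between members and platinum-shared regions: the reversed AP-1 letters were held by 6.13% and 5.15%, a difference of 0.981 points (0.102 to 1.86). Against regions of Cispl alone, 8 motifs differed and 4 reversed ones, so that this comparison has a larger background. There the AP-1 share was 27.9% against a weighted 7.90%, a difference of 20.0 points (18.6 to 21.4), and the NF-κB share 6.33% against 2.55%. The reversed AP-1 letters differed there too, by 1.592 points (0.7655 to 2.418). ISRE matches, which did not separate members from platinum-shared regions, were held by 3.78% of members and 2.28% of regions of Cispl alone (difference 0.853 to 2.14 points), but their reversed letters also differed.

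AP-1 sites were more frequent in members at every kind of position. In intergenic members the share was 30.0% against a weighted 15.4% in platinum-shared regions, in introns 27.2% against 15.9%, in exons 24.4% against 15.7% and at start sites 21.5% against 12.5%. The intervals left out 0 in all 4 kinds. The AP-1 share was higher in members on all 20 chromosomes with at least 100 members, from 24.8% to 32.4%, against 14.9% to 20.2% in platinum-shared regions, unweighted. It was 17.0% (15.4 to 18.8) in the 1900 members beside an interval of another list and 30.4% (29.4 to 31.4) in the remainder.

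Stronger members held AP-1 sites more often. In 5 classes of the smaller of the 2 −log10 q values, the share rose from 18.2% (16.6 to 20.0) in the weakest to 37.3% (35.2 to 39.3) in the strongest. NF-κB sites went from 5.38% to 8.01%, and the nuclear receptor half-site from 20.6% to 22.8%. RUNX sites went from 27.57% to 31.75% and TEAD sites from 17.13% to 21.43%. The classes rest on the calls that chose the members, so these shares are a description. The AP-1 sites also lay near the summit, at a median distance of 23.0 bp, and 44.1% of members that held one had it within 20 bp. For RUNX and TEAD sites the medians were 33.5 and 36.5 bp, for NF-κB sites 39.0 bp and for the nuclear receptor half-site 44.5 bp. The CTCF core, held by 45 members, lay closer than AP-1, at a median of 15.5 bp and with 60.0% within 20 bp.

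The other motifs also differed in regions without an AP-1 site. Among the 7333 members without an AP-1 site, TEAD sites were held by 19.3% against a weighted 14.9% of platinum-shared regions without one (difference 2.66 to 5.96 points). RUNX sites were held by 31.4% against 27.8% (1.67 to 5.62) and NF-κB sites by 6.89% against 4.35% (1.52 to 3.55). None of the 4 more frequent motifs was held by 3772 members (37.1%), against 46.7% of platinum-shared and 61.0% of Cispl-only regions, unweighted. In regions called in every list it was 51.9%. These 4 motifs were picked because they were more frequent in members than in platinum-shared regions, so the lower share of members is a description.

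The motif shares of the platinum-shared regions were also described by their levels. The calls that chose the members are thresholds on the same levels, so what follows is a description and no independent support. The regions were placed in 5 classes by the log2 ratio of the Cispl over the Oxali level at matched depth. In the class lowest in Cispl, with a median ratio of −0.73, 29.7% (28.4 to 31.03) held an AP-1 site, close to the 27.9% of members. The share was 19.2%, 15.3% and 12.9% in the classes between and 11.1% in the class highest in Cispl, with a median ratio of 0.54. Regions of Cispl alone held an AP-1 site in 7.76%.

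NF-κB sites went from 7.18% to 2.91%, TEAD sites from 19.9% to 12.4% and RUNX sites from 32.9% to 24.3% between the outer classes. The CTCF core went the other way, from 0.616% to 3.34%, but was held by 1.26% of regions of Cispl alone. The nuclear receptor half-site was held by 25.9% in the class lowest in Cispl and 28.4% in the highest, both above the 22.1% of members. Strength moved with the classes, with median Oxali pileups from 63 down to 36 and median −log10 p from 23.6 down to 8.44, and AP-1 shares also moved with strength among the members. The part of strength in this order was not tested.

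**Figure D5:**
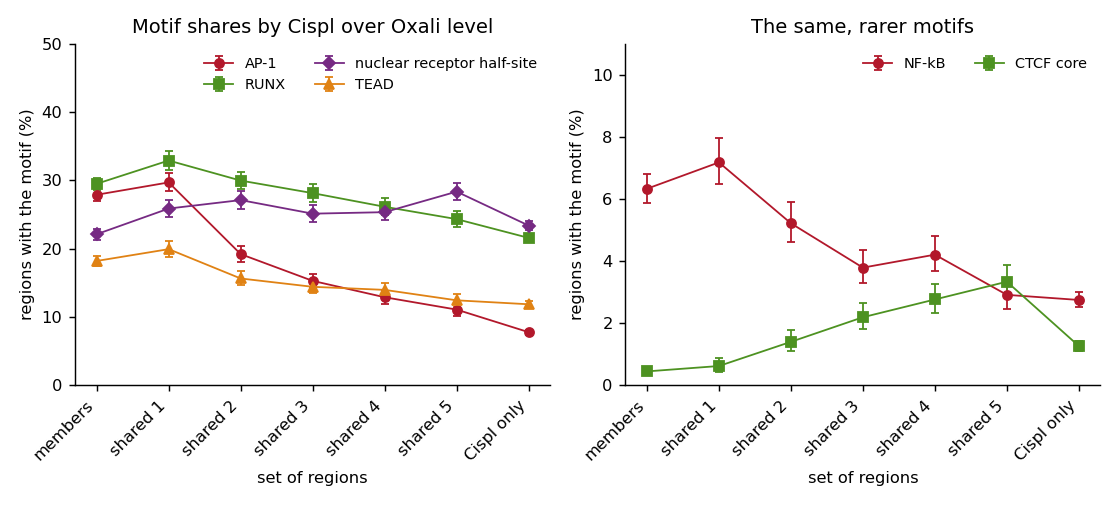
Share of regions with a motif in the members, in platinum-shared regions in 5 classes of rising Cispl over Oxali level (shared 1 to shared 5), and in regions of Cispl alone, with 95% Wilson intervals. AP-1 falls from 29.7% to 11.1% over the 5 classes, and the CTCF core rises from 0.616% to 3.34%.

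The 10 strongest members, ranked by the smaller of the 2 −log10 q values, were mostly distal. The strongest, chr10:6032464-6032851, lay 110270 bp from the start site of Rgs17, a regulator of G protein signaling, with pileups of 124 with Oxali and 133 with the combination. Its summit was 91.5% repeat-masked. At chr7:130999436-131000409, in an intron of Fgfr2 as annotated and 17212 bp from the start site of the serine protease gene Htra1, pileups were 118 and 153. The intronic member of Aff3 printed above, chr1:38424260-38424913, had 114 and 139. All these stood over the genome background, where the other lists could hide at most 20, 26 and 17.

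A member 199113 bp from Egflam, which encodes an extracellular matrix protein, had pileups of 108 and 143 at chr15:7597016-7597821. Near Rap2b, a small GTPase gene, chr3:61343871-61344491 had 100 and 110 and held AP-1, NF-κB, p53 half-site and TEAD matches. The nearest interval of Ctrl was 242895 bp and that of Cispl 50925 bp away there.

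The other 5 stood over a raised local background, and 4 of them had an interval of an absent list within 501 bp. At the start site of Coro1c, an actin-binding coronin, chr5:113874475-113874744 had pileups of 373 and 436 over 115 in the Oxali list, where up to 178 could have gone uncalled with Cispl. Near Klf13, a zinc finger transcription factor gene, chr7:63940442-63940720 had 688 and 905 over 327, with a limit of 461 with Cispl. In an intron of Tnn, which encodes tenascin N, chr1:160150632-160151605 had 217 and 253. The Agfg2 exon member, chr5:137651488-137651885, had 202 and 271. Near Eif1, a translation initiation factor gene, chr11:100326879-100327275 had 185 and 206. In all 5 the Oxali level, scaled for depth, was above the limit of each absent list.

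By gene, 3622 of 21911 protein-coding genes (16.5%) had a member in the body or 5 kb around it, 2645 of them a single member. The genes with most members were long. Gm20388, a predicted gene that spans 4435 kb in GENCODE M21, held 57 members of 1167 regions, and Fgfr2, whose annotated span is 2961 kb, held 20 of 481. St6galnac3, a sialyltransferase gene, held 14 of 82 regions, and its members had Oxali pileups from 23 to 57. Dlgap2, a synaptic scaffold gene, held 13 of 80, Rgs6, another regulator of G protein signaling, 12 of 77, and Slit3, a guidance ligand gene, 12 of 92. These last 4 held 3, 3, 5 and 1 regions of Cispl alone, and 14, 16, 10 and 11 platinum-shared regions.

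Gene lists were drawn up for interferon and antigen presentation, DNA damage, stress signaling, cell state and platinum handling. Among 9 gene lists, all 238 genes of which were found in the annotation, 53 members lay in or within 5 kb of a gene. Counts are given per Mb of gene window, since long genes hold more regions, beside 4.35 per Mb (4.23 to 4.47) over all protein-coding genes. The exact Poisson interval of every list included that value. As a share of all merged regions at the genes, members made up 3.93% over all protein-coding genes. The Wilson intervals of 7 lists, with shares from 2.01% to 4.35%, included that value, and those of interferon signalling, 1.09% (0.300 to 3.897), and NF-κB signalling, 0.862% (0.237 to 3.09), lay below it, none of them widened for 9 lists. The share of genes with a member ran from 3.33% for interferon signalling and 3.57% for NF-κB signalling to 30.8% for histone acetyltransferases and deacetylases and 36.4% for platinum transport and metal binding, against 16.5% of all genes.

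Of 30 interferon signalling genes, 1 had a member. Mx1, an interferon-induced antiviral GTPase, had 2, and the stronger, chr16:97461167-97461569 at its start site, had a pileup of 39 with Oxali and 76 with the combination and held an AP-1 site. The list had 1.85 members per Mb (0.225 to 6.70). Of 20 genes of class I antigen presentation, Calr and Sec61a1 had 1 member each. At Calr, the gene of the chaperone calreticulin, pileups were 219 and 223 over a background of 96.8, and at Sec61a1, a subunit of the translocon, they were 32 and 33 with an interval of each absent list within 54 bp. The list had 4.19 per Mb (0.508 to 15.2).

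Of 28 NF-κB signalling genes, only Traf2, an adaptor of TNF receptors, had members. It held 2, and the stronger, chr2:25540494-25540970, was intronic with pileups of 38 and 47 and an AP-1 site. That list had 1.87 per Mb (0.227 to 6.76). Of 30 p53 targets, 4 had a member: the cell death gene Bbc3 (338 and 338 over 208), the stress gene Gadd45a (201 and 224 over 131), the ribonucleotide reductase gene Rrm2b (28 and 34) and the receptor gene Eda2r (84 and 104 over 54.1). The list had 4.26 per Mb (1.16 to 10.9). At Bbc3 and Gadd45a the background was high and an interval of Cispl lay 244 and 253 bp away.

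Of 32 genes of crosslink and excision repair, 5 had members, with 3.65 per Mb (1.47 to 7.52). The mismatch repair gene Msh6 had pileups of 207 and 190 at a member 89 bp from a Cispl interval. The Fanconi anemia genes Fance, Fanci and Brip1 had 170 and 233, 32 and 32, and 137 and 120. Except at Fanci, these stood over backgrounds of 80.5 or more. None of the 5 repair genes had more than 2 members.

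Of 23 genes of AP-1 and stress kinases, 4 had members, all of them with an AP-1 site in the strongest, and the list had 6.51 per Mb (2.62 to 13.4). Jdp2, which encodes a repressor of the AP-1 family, had pileups of 106 and 121 at chr12:85594442-85594667. Dusp1, the gene of a MAP kinase phosphatase, held 3 members of 19 regions and had 313 and 371 at the strongest. Its span as annotated was chr17:26505590-26562128. Fosl1, which encodes Fra-1, had 170 and 192 at chr19:5451852-5452086, over a background of 108. Atf3, a stress-induced partner of Jun, had 32 and 35 at chr1:191200118-191200325, which also held NF-κB, p53 half-site, forkhead and ETS matches.

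Of 28 genes of epithelial to mesenchymal transition, 7 had members, at 4.90 per Mb (2.24 to 9.31). Zeb1, a repressor of epithelial genes, held 3 members, and the strongest had pileups of 54 and 89 over the genome background, with the nearest interval of any absent list 15065 bp away. Snai2, which encodes Slug, had 26 and 39 at its start site, 149 bp from an interval of Ctrl. The integrin gene Itgb1 had 237 and 204 over 141, and Tgfb2, a TGF-β ligand gene, 35 and 49.

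Of 22 genes of platinum transport and metal binding, 8 had members, at 6.52 per Mb (2.98 to 12.4). Their median gene length was 37.9 kb, against 17.4 kb over all genes. The metallothionein gene Mt1 had 317 and 345 at its start site, over a background of 118 and with a Cispl interval 176 bp away. Gclm, a subunit of the enzyme that begins glutathione synthesis, had 340 and 395 at its start site, over 142 and with intervals of the 3 absent lists within 76 bp. The exporter gene Abcc4 had 62 and 73, and the copper chaperone gene Atox1 had 57 and 47 at chr11:55453693-55453975. The Atox1 member held AP-1, NF-κB, cyclic AMP response element, p53 half-site and C/EBP matches. At Abcc4 and Atox1 the background was near that of the genome.

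Of 26 genes of histone acetyltransferases and deacetylases, 8 had members, at 3.55 per Mb (1.77 to 6.35). The strongest lay in deacetylase genes: Hdac7 had pileups of 117 and 153, Hdac4 69 and 104, Hdac9 48 and 47, and the sirtuin gene Sirt2 64 and 89, 87 bp from an interval of Cispl. The Hdac4 and Hdac9 members held AP-1 sites. Both genes held more platinum-shared regions than members, 7 against 2 and 11 against 2.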

How the data were processed

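ATAC-seq libraries of 10 Myc-CaP samples were used as the 5 peak lists deposited, 1 per group of 2 pooled libraries. The authors trimmed reads with cutadapt, aligned them to mm10 with Bowtie2 2.2.8, filtered with SAMtools, removed duplicates and mitochondrial reads, pooled both libraries, called peaks with MACS2 2.1.0 and removed blacklisted regions. The deposited fold is the ratio that MACS2 gives of pileup to local background, each with 1 added. The deposited −log10 p-value is the Poisson probability of the pileup over that background. A deposited score, −log10 of the q-value, is its adjusted form. The deposited summit offset places the summit in its interval. Depth was read from the background over the genome, in read ends: 9.62 for IFNγ, 11.3 for Oxali, 12.1 for Ctrl, 12.9 for the combination and 13.8 for Cispl.

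Pileup and background were solved from fold and p (tolerance 0.01). A missing call was turned into the highest pileup that could go uncalled at the local background of the member, scaled by depth. That limit is by height alone, whereas MACS2 also asks for a minimum length. Genes were those of GENCODE M21 (GRCm38, that is mm10), and start sites are those of all transcripts. Sequences were read from the same assembly. The NF-κB, p53 and CTCF consensus letters were searched as degenerate patterns. Shares carry Wilson intervals at 95%, and differences in position and in repeat-masked share carry Newcombe intervals at 95%. Motif differences carry intervals that are symmetric about the difference and widened for the number of motifs searched. All these intervals are for counting error only.

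The members, gene lists and motifs were chosen with earlier results of these data known. Named regions are the 10 strongest and 2 weakest members by the smaller −log10 q, the strongest member of up to 4 genes per list, the 6 genes with most members, and up to 2 members per differing motif. Zeb1 lies on a chromosome of which no sequence is shown. Methods were checked on simulated data with Python 3.11.15, NumPy 2.4.6, SciPy 1.17.1 and pandas 2.3.3. Alternative thresholds, overlaps, windows and weightings were also run. Some marker genes of the luminal and leukocyte lists are not reported here.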

Additional observations from a re-analysis of the deposited data

How the results depend on the processing

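The number of members stayed within 1.5 times of 10170 under 8 of 9 alternatives, and was 4926 when both calls needed a q-value of at most 1e-05. Without merging and with 50% coverage it was 12717. The start-site share of members, 7.98%, was 6.92% without regions within 500 bp of an interval of an absent list, 4.66% with start sites taken within 500 bp and 16.7% within 2500 bp. The difference from platinum-shared regions stayed below 0 in all 11 alternatives, from −2.98 to −1.26 points. Between 5 and 6 motifs differed in all 12 alternatives. The RUNX difference was the exception, at 1.21 points without weighting and 1.15 with weighting on GC content alone, both with intervals that include 0. Members at the listed genes, 53, were 29 at a q-value of at most 1e-05, 35 without regions within 500 bp of an absent list and 134 with 50 kb around the gene. No paired analysis was possible because the libraries of a group were pooled before peaks were called, and for the same reason no library could be left out. At the Oxali level, scaled for depth, 9991 of 10170 members would have passed by height in the Cispl list. For the remainder a missing call says nothing about cisplatin. The lower Poisson bound of the Oxali level exceeded the Cispl limit in 5894 members (57.95%). In members outside these 5894, a missing Cispl call lies within the counting error of the Oxali level.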
